A study of Mus musculus with 14 samples.

Results

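The genes described here are 9 regulators and receptors by which the Th1, Th2 and Th17 forms of helper T-cells are commonly told apart: the transcription factors Tbx21, Gata3 and Rora, the chemokine receptors Cxcr3, Ccr6 and Ccr4, and the cytokine receptors Il12rb2, Il18r1 and Il1rl1. They were taken as every probe whose gene name on the array was one of these 9, which gave 15 of the 56605 probes. Of these 15 probes, 11 had enough signal to enter the test, and they covered 8 of the 9 genes.

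CD4+ helper T-cells take on different forms depending on the cytokines they meet, and each form is held by its own transcription factor. T-bet, made from Tbx21, drives the Th1 form, which makes interferon gamma and carries Cxcr3 and the receptors for interleukin 12 and interleukin 18. GATA3 drives the Th2 form, whose cells can carry Ccr4 and the interleukin 33 receptor made from Il1rl1, while ROR alpha, made from Rora, acts in Th17 cells, which carry Ccr6.

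RNA from CD4+ T-cells was hybridised to 14 one-colour mouse expression arrays, 7 from Roquin san/+ mice and 7 from wild-type mice. The sanroque allele is a point mutation of the RNA-binding protein Roquin, made from Rc3h1, and the Roquin san/+ mice carried it on one chromosome only, in every cell. An array probe does not read a point mutation, so the level of Rc3h1 is no check of the genotype. The age and sex of the mice, and whether those of the Roquin san/+ group had enlarged lymph nodes, are not given in the sources used here. Arrays are named by genotype and letter (A to G). Nothing beyond the letter says how the RNA samples of a group were obtained, so p-values measure the spread between these samples.

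Levels are log2 processed signals relative to the 75th percentile of the same array, so that 0 is a bright probe and a difference of 1 is a doubling of signal. They can be compared between arrays for one probe but not between probes. The 75th percentile itself lay at a processed signal of 800 on Roquin san/+ C and between 4898 and 13110 on the other 13 arrays. On Roquin san/+ G and wild-type E the spots lay 2 grid rows away from their probe names, and their values were read after moving the grid back. The move did not repair the lowest signal of these displaced arrays, which corresponded to levels of -5.88 and -5.67, so that any dimmer probe was listed at that floor there. Slide 1 held 5 Roquin san/+ and 2 wild-type arrays and slide 2 held 2 and 5, so slide and genotype overlapped in part. All 7 genes of the CD4+ T-cell marker list (Cd3e, Cd3d, Cd3g, Cd4, Cd28, Cd5 and Lck) were well above background on all 14 arrays. The log2 of their summed level was 3.89 on Roquin san/+ F, 4.06 on wild-type C and 4.26 on Roquin san/+ C, and lay between 4.85 and 5.25 on the other 11. Because the samples are bulk RNA, fewer cells of a type and less RNA per cell cannot be told apart in any of these levels.

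Some of the probes carry points on which the values below turn, and their first 30 of 60 bases are shown as the array design lists them, in lower case. The Cxcr3 probe gave the largest separation of the genotypes, and the Il1rl1 probes read a short and a long transcript of one gene. In the mouse build mm9 the Cxcr3 probe lies at chrX:98926920-98926979 on the minus strand, and the Il1rl1 probes lie on the plus strand at chr1:40504769-40504828 (short transcript, which encodes the soluble receptor), chr1:40520014-40520073 and chr1:40522187-40522246 (both long transcript, which encodes the membrane receptor).
Cxcr3: gccaggcgttgtcagcactgaatgtgccca
Il1rl1 short transcript: ctctgtaacaggatcttttgtctagatttc
Il1rl1 long transcript, first probe: ccttacccaaattgccattacagtcgagca
Il1rl1 long transcript, second probe: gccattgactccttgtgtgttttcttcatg

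None of the 11 tested probes of the 9 genes differed between genotypes after adjustment over all 28805 probes tested (limma, lmFit and eBayes, Benjamini-Hochberg adjusted p from 0.866 to 0.977). No other probe of the array did either, and the lowest adjusted p was 0.866. At an unadjusted p below 0.05, 1 of the 11 passed (9.09%), the probe of Cxcr3, against 3.82% of all tested probes (1100, of which 999 were higher and 101 lower in Roquin san/+). The difference, Roquin san/+ minus wild-type, was positive for 10 of the 11, against 60.4% of all probes tested, and their median of 0.30 on the log2 scale stood beside a median of 0.07 over all tested probes. The probes that passed the filter are not all of the 15, and the members were chosen with results of these data known, so these counts are a description. None of the 9 genes separated the groups without overlap, and 12 of all tested probes did (0.0417%), each of them higher in Roquin san/+. Of the 11 probes, 1 passed an unadjusted p of 0.05, again that of Cxcr3, with slide as a block (1.59% of all tested probes), without both displaced arrays (6.61%) and without wild-type C and Roquin san/+ C and F (1.62%). Without Roquin san/+ F there were 3, of Rora, Cxcr3 and Ccr4 (27.3%, against 2.62% of all tested probes).

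**Figure D1:**
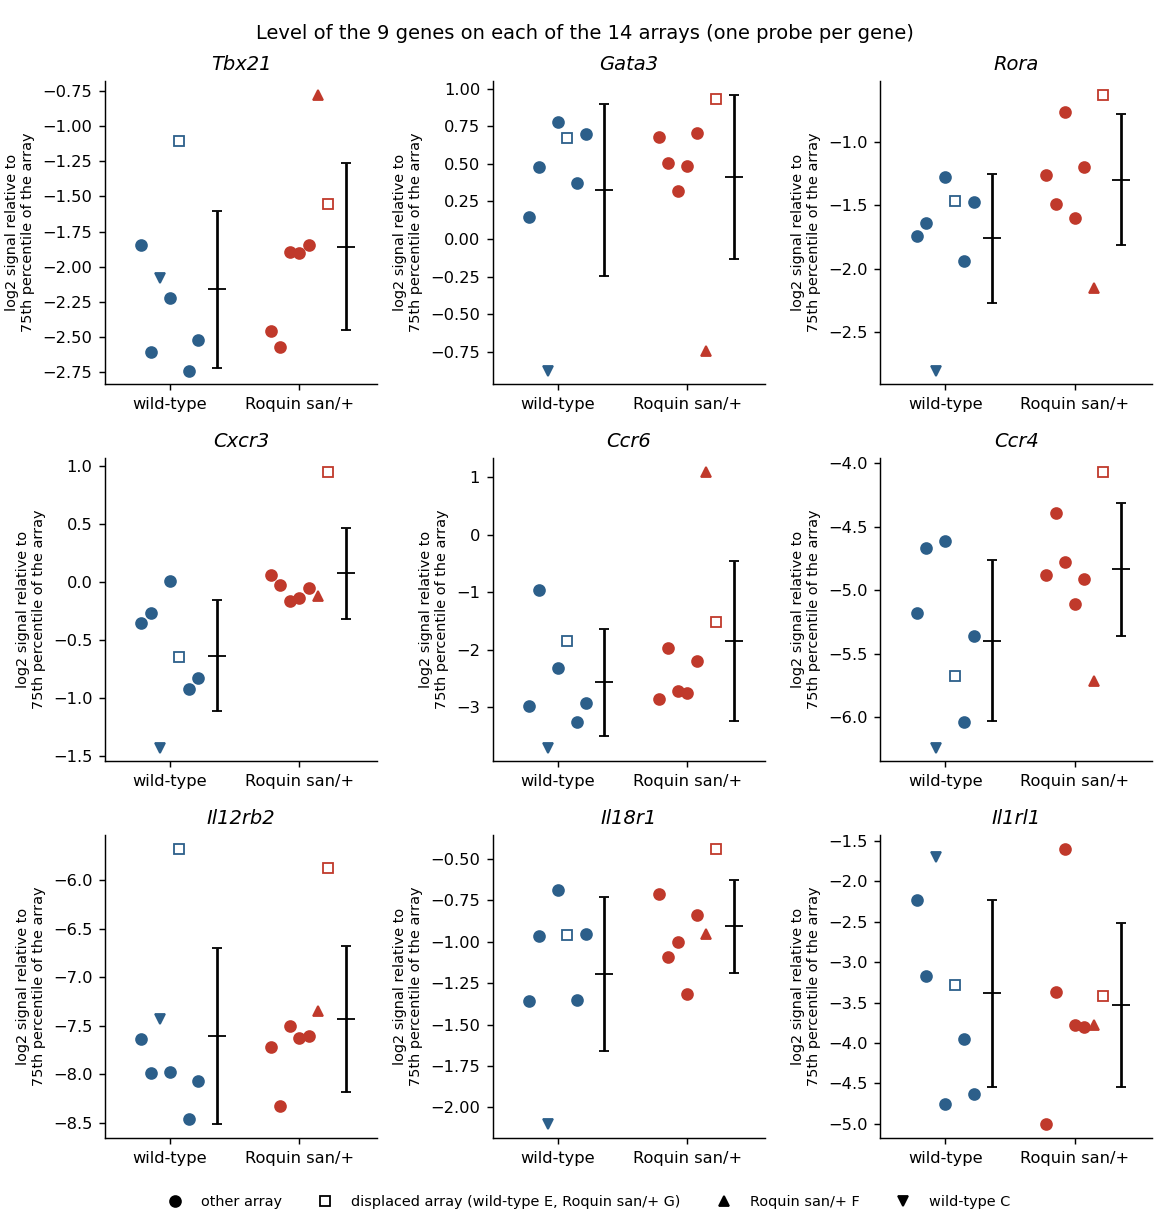
Level of each gene on each array, as log2 processed signal relative to the 75th percentile of the array (each panel has its own axis), with the mean and SD of the 7 arrays of a genotype beside the points. Open squares are the displaced arrays, the upward triangle is Roquin san/+ F and the downward triangle wild-type C. In the Cxcr3 panel 6 of the 7 wild-type arrays lie below every Roquin san/+ array.

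Among the transcription factors, Tbx21 had levels of -2.58, -1.89 and -0.78 (lowest, median and highest) on the Roquin san/+ arrays and of -2.74, -2.22 and -1.11 on the wild-type arrays. The groups overlapped over most of their range, and 1 Roquin san/+ array, F, lay above every wild-type array. On that array the NK-cell markers (Ncr1, Klrb1c, Klra8, Klre1, Klrk1 and Nkg7) had their highest log2 summed level, 1.79. The next was 0.57 on Roquin san/+ G, a displaced array. The CD8+ T-cell markers (Cd8a and Cd8b1) were also highest there, at 1.25, followed by wild-type F at -2.15. The part of such cells in the Tbx21 levels was not tested. The difference of 0.30 (SE 0.30, n = 7 and 7) had a limma adjusted p of 0.878, and a two-sided exact permutation test gave p = 0.349. It was 0.12 without Roquin san/+ F and 0.48 without wild-type E, a displaced array (exact p = 0.662 and 0.110).

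Gata3 had the smallest difference of the 9 genes, with levels of -0.75, 0.50 and 0.93 in Roquin san/+ and of -0.87, 0.48 and 0.78 in wild-type. One array stood below the rest in each group, Roquin san/+ F at -0.75 and wild-type C at -0.87, and all others were above 0. These were also the arrays with the lowest level of the CD4+ T-cell markers; the part of this in the Gata3 levels was not tested. The difference was 0.09 (SE 0.29, 95% interval -0.53 to 0.70, two-sided exact permutation p = 0.705), and it turned to -0.086 when the arrays were scaled on all probes.

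Rora is read by 3 probes. The one with the highest mean signal had levels of -2.16, -1.26 and -0.62 in Roquin san/+ and of -2.81, -1.64 and -1.27 in wild-type. All 7 wild-type arrays lay below the Roquin san/+ median and 4 of the 7 Roquin san/+ arrays lay above every wild-type array, but Roquin san/+ F lay below all wild-type arrays except C. The difference was 0.46 (SE 0.27, limma adjusted p = 0.866, two-sided exact permutation p = 0.118), and leaving out one array at a time gave values from 0.29 without wild-type C (exact p = 0.234) to 0.61 without Roquin san/+ F (exact p = 0.0233). It was 0.18 with array weights and 0.14 when replicate letter and slide were both blocks. A second probe of the same Rora transcript differed by 0.44 (SE 0.26, exact permutation p = 0.137). The third, designed on another Rora transcript, was well above background on 1 of the 12 correctly gridded arrays and was not tested.

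Of the chemokine receptors, Cxcr3 differed most clearly. It binds the interferon-induced chemokines CXCL9, CXCL10 and CXCL11. In Roquin san/+ its levels were -0.16, -0.05 and 0.95, and in wild-type -1.43, -0.65 and 0.01. The 6 correctly gridded Roquin san/+ arrays lay close together between -0.16 and 0.06 (SD 0.08), while the 6 such wild-type arrays spread from -1.43 to 0.01 (SD 0.52). Wild-type D was the only wild-type array within the range of Roquin san/+, and Roquin san/+ G, a displaced array, was the highest of all. The difference was 0.71 (SE 0.24, 95% interval 0.21 to 1.21), a 1.63-fold higher signal (1.15 to 2.31), with p = 0.00524 in the two-sided exact permutation test. After adjustment over all probes it did not pass (limma adjusted p = 0.866), and by its unadjusted p of 0.0088 it ranked 106 of 28805.

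The Cxcr3 difference was positive in all 32 ways in which it was computed, and its exact p was below 0.05 in 27 of the 30 that allow one. These ways share most of their arrays. Changes of the filter or the variance model cannot alter the difference or its exact p. The counts are thus a description and not separate support. Without both displaced arrays it was 0.56 (exact p = 0.0195), without Roquin san/+ F 0.74 (exact p = 0.00816), and without wild-type C and Roquin san/+ C and F 0.66 (exact p = 0.0130). With slide as a block it was 0.73 (exact p = 0.0272), and on slide 1 alone it was 1.02 (exact p = 0.0476, the smallest that 5 arrays against 2 can give). The exact p was above 0.05 on slide 2 alone, at a difference of 0.44 (exact p = 0.381), when the arrays were scaled on all probes, at 0.54 (exact p = 0.0723), and under the probe names as deposited, where the displaced arrays read other genes, at 0.45 (exact p = 0.486).

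Ccr6, the receptor for CCL20, had levels of -2.86, -2.20 and 1.09 in Roquin san/+ and of -3.70, -2.92 and -0.96 in wild-type. The highest array was Roquin san/+ F at 1.09 in its group, where the next was at -1.52. In wild-type it was B at -0.96, where the next was at -1.85. The same 2 arrays had the highest level of the B-cell marker list (Cd79a, Cd79b, Ms4a1, Pax5 and Cr2), with a log2 summed level of 4.17 on Roquin san/+ F and 2.24 on wild-type B. On the other arrays that level ran from -1.72 to 0.91 in Roquin san/+ and from -2.48 to -0.08 in wild-type, and all 5 markers were detected on both arrays named. B-cells also express Ccr6, and the part of their RNA in these levels was not tested. The difference of 0.72 (SE 0.58, two-sided exact permutation p = 0.300) fell to 0.23 without Roquin san/+ F and was -0.12 on slide 2 alone.

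**Figure D2:**
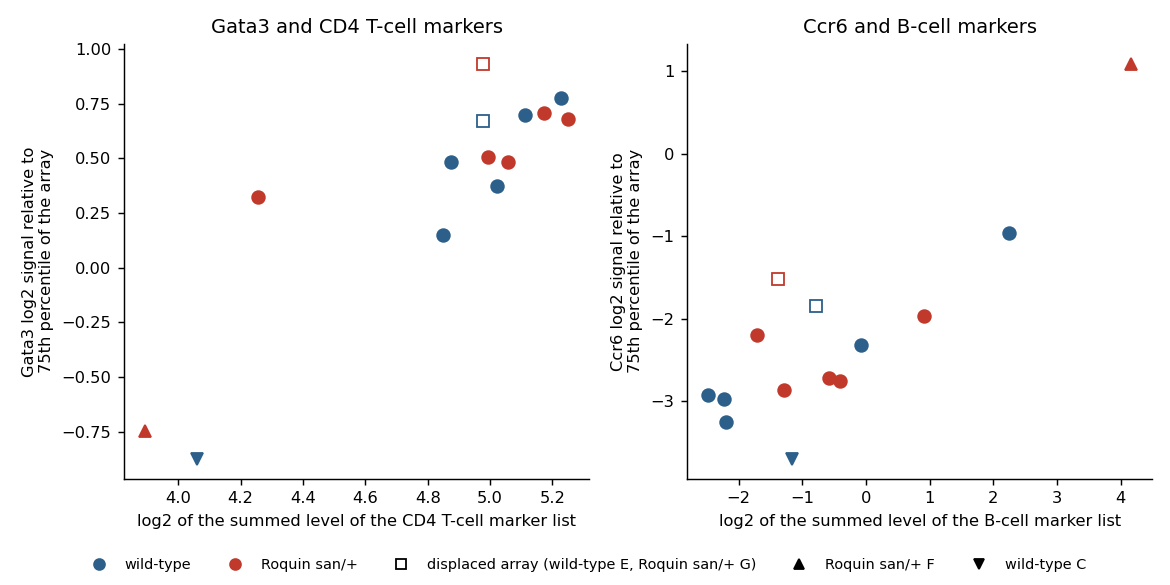
Left, Gata3 level (log2 signal relative to the 75th percentile) against the log2 summed level of the CD4+ T-cell marker list on each of the 14 arrays; right, Ccr6 level against that of the B-cell marker list. Roquin san/+ F and wild-type C are lowest for Gata3 at -0.75 and -0.87, and Roquin san/+ F is highest for Ccr6 at 1.09.

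Ccr4, which binds CCL17 and CCL22, is read by a pair of probes on one transcript. The one with the higher mean signal had levels of -5.72, -4.88 and -4.07 in Roquin san/+ and of -6.24, -5.36 and -4.61 in wild-type, where array E was listed at its floor. The -4.07 was on Roquin san/+ G, a displaced array, and was not called well above background. The groups overlapped, with 2 Roquin san/+ arrays above every wild-type array and 2 wild-type arrays below every Roquin san/+ array. The difference was 0.56 (SE 0.30, limma adjusted p = 0.866, two-sided exact permutation p = 0.0950). Its exact p was below 0.05 without Roquin san/+ F, at 0.71 (exact p = 0.0390), without wild-type D, at 0.69 (exact p = 0.0478), and with normexp background correction, at 0.64 (exact p = 0.0402), and in no other alternative. The difference was smaller without both displaced arrays, at 0.38 (exact p = 0.258), with scaling on all probes, at 0.39 (exact p = 0.257), on slide 2 alone, at 0.26 (exact p = 0.762), and in the authors' log2 values, at 0.17 (exact p = 0.618). The other Ccr4 probe, at the floor of both displaced arrays and tested only because it was detected on all 6 correctly gridded wild-type arrays, differed by 0.30 (SE 0.44, exact permutation p = 0.537).

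Il12rb2, the chain that gives Th1 cells their response to interleukin 12, was near the limit of detection. Its probe was well above background on 5 of the 6 correctly gridded arrays in each genotype, did not pass the filter and was not tested across probes. Levels on those arrays ran from -8.33 to -7.35 in Roquin san/+ and from -8.46 to -7.44 in wild-type. The displaced arrays, at -5.88 and -5.67, were at their floor and hold no measured level of Il12rb2. Without them the difference was 0.24 (two-sided exact permutation p = 0.251, 6 arrays in each genotype), with 1 array in each genotype not well above background.

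Il18r1, which binds interleukin 18, had levels of -1.31, -0.95 and -0.44 in Roquin san/+ and of -2.10, -0.96 and -0.69 in wild-type. The medians of both groups were nearly equal, and 3 wild-type arrays lay below every Roquin san/+ array, wild-type C the farthest. The difference was 0.29 (SE 0.21, 95% interval -0.16 to 0.74, two-sided exact permutation p = 0.189). Without wild-type C it was 0.14 (exact p = 0.375), and with array weights 0.058. A probe of another Il18r1 transcript, at the floor of both displaced arrays, differed by 0.20 (SE 0.40, exact permutation p = 0.659).

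Il1rl1 was the only one of the 9 genes with a lower mean in Roquin san/+. Its probe with the highest mean signal had levels of -5.01, -3.77 and -1.60 in Roquin san/+ and of -4.75, -3.28 and -1.70 in wild-type. The difference of -0.15 (SE 0.53, 95% interval -1.28 to 0.99, two-sided exact permutation p = 0.794) was small beside the spread within each group (SD 1.01 and 1.15). It was 0.86 on slide 1 alone and -0.76 on slide 2 alone, with exact p of 0.381 and 0.429, and the difference between the slides was not tested.

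The other 2 Il1rl1 probes were dim, well above background on 7 and 5 of the 12 correctly gridded arrays, and were not tested. Over these 12 arrays, values not well above background included, the levels of the 3 probes were correlated. Pearson's r was 0.95 between the short transcript probe and the second long transcript probe (Spearman's rho 0.965), 0.91 between the short transcript probe and the first long transcript probe (rho 0.846), and 0.86 between both long transcript probes (rho 0.846). The points share their libraries and their scaling, so these values describe the arrays and carry no test. Wild-type C was the highest of its group for all 3 probes on these arrays. Roquin san/+ C was the highest of its group for the short transcript probe and the second long transcript probe, and was not well above background for the first. On the list of mast cell and basophil markers (Cpa3, Fcer1a, Mcpt8, Ms4a2 and Gata2), cells that also carry the interleukin 33 receptor, wild-type C was the highest wild-type array, with a log2 summed level of -1.83, and Roquin san/+ C, at -1.16, came after Roquin san/+ F, at -0.88. Roquin san/+ F was not high for Il1rl1, at -3.78 for the second long transcript probe beside a group median of -3.77. The range of the marker list was -4.53 to -0.88 in Roquin san/+ and -4.35 to -1.83 in wild-type, and the part of such cells in the Il1rl1 levels was not tested.

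**Figure D3:**
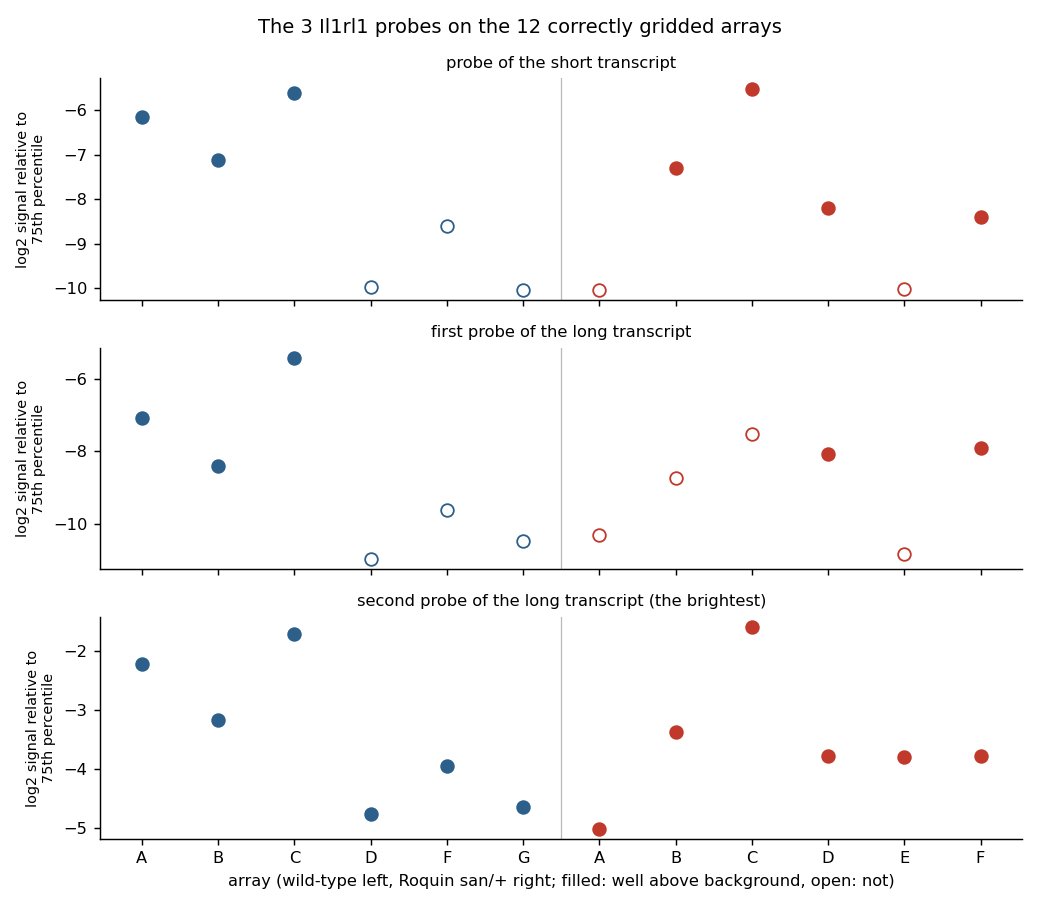
Levels of the 3 Il1rl1 probes (log2 signal relative to the 75th percentile of the array, one panel each) on the 6 wild-type and 6 Roquin san/+ arrays with a correct grid. Filled points are well above background. Wild-type C is the highest wild-type array in every panel.

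The second long transcript probe lies near the next gene on the chromosome. Its 60 bases were found on the same strand within the window that RefSeq sequence gives for an Il18r1 start (GRCm38.p6, chr1:40465302-40465601), at chr1:40465342-40465401, so the probe ends 150 bases before that start. RNA that began farther upstream of Il18r1 would carry the same bases. The levels of this probe are therefore given as those of Il1rl1 by the array's own naming.

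Across the arrays, the members did not move as one. Roquin san/+ G had the highest level of its group for 6 of the 9 genes (Gata3, Rora, Cxcr3, Ccr4, Il12rb2 and Il18r1). Of these, Il12rb2 was at the floor there, and Ccr4 was above the floor but not called well above background. Wild-type C had the lowest level of its group for 6 genes (Gata3, Rora, Cxcr3, Ccr6, Ccr4 and Il18r1) and the highest for Il1rl1. Roquin san/+ F was lowest for Gata3, Rora and Ccr4 and highest for Tbx21 and Ccr6. The difference between genotypes was larger on slide 1 than on slide 2 for each of the genes except Gata3, which was at -0.20 on slide 1 and 0.35 on slide 2. Il12rb2 is left out of this. Its values on Roquin san/+ G (slide 1) and wild-type E (slide 2) were floors and enter the differences of both slides. The median over all tested probes was also higher on slide 1, at 0.20, than on slide 2, at -0.093. Relative to these medians Rora was at 0.24 on slide 1 and 0.48 on slide 2, and Il18r1 at 0.11 and 0.23, so that for both the order of the slides turned round.

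**Figure D4:**
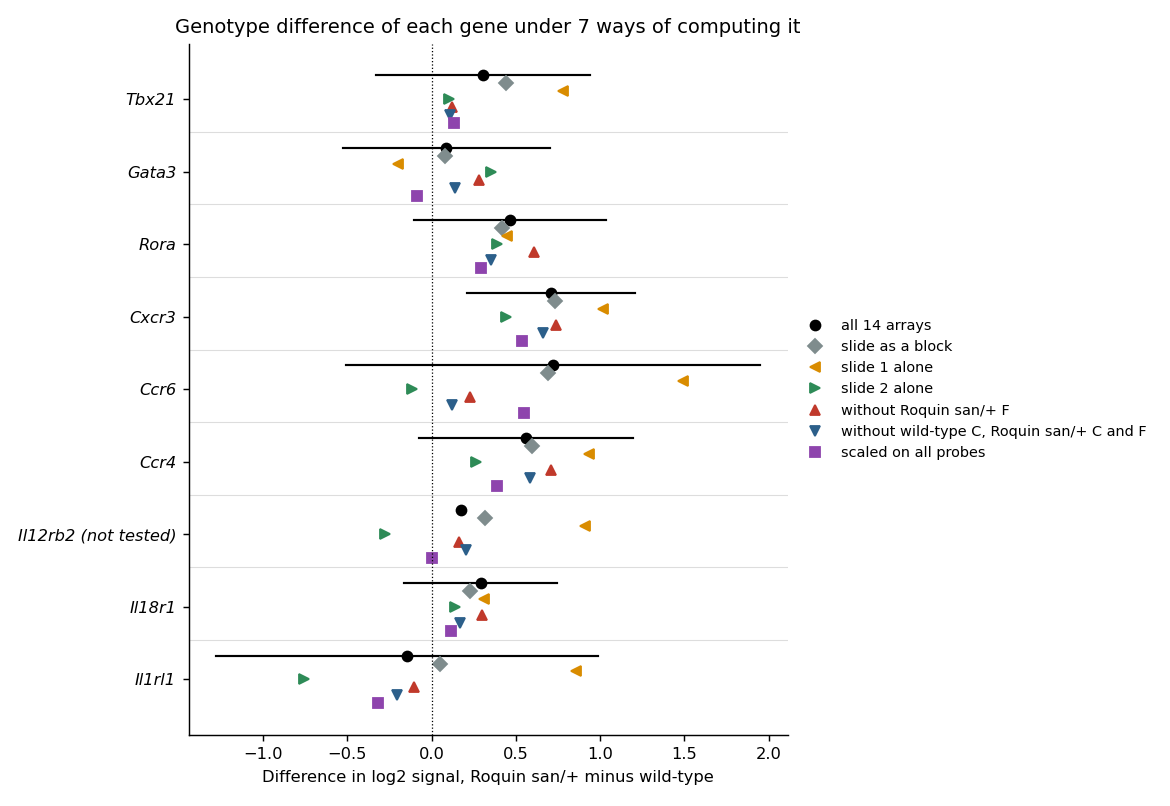
Difference in log2 signal, Roquin san/+ minus wild-type, for each gene, computed on all 14 arrays (black, with its 95% interval for the tested genes) and in 6 other ways. Cxcr3 lies above 0 in each of them, from 0.44 to 1.02, and Gata3, Ccr6, Il12rb2 and Il1rl1 have points on both sides of 0. All Il12rb2 points include a displaced array at its floor.

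Each factor was then set against receptors of its own form within a genotype, in 12 correlations over 7 arrays (two-sided exact permutation over all pairings, Benjamini-Hochberg over the 12). No relation between Tbx21 and Cxcr3 passed, with r = 0.11 and rho = -0.07 in Roquin san/+ (exact p = 0.676 and 0.906) and r = 0.03 and rho = 0.07 in wild-type (exact p = 0.951 and 0.906). For Tbx21 and Il12rb2 no value is given, because 2 of the 7 arrays of each genotype hold no level of Il12rb2 well above background, and in wild-type these were the arrays with its highest and lowest values. The tests of this pair stayed among the 12 of the adjustment, so the adjusted p-values of the other pairs depend on them.

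Gata3 and Il1rl1 went in opposite directions over the wild-type arrays, with r = -0.83 (exact p = 0.00397, adjusted 0.0238) and rho = -0.89 (exact p = 0.0123, adjusted 0.0492). Both adjusted values are lower than they would be without the tests of Tbx21 and Il12rb2. Without these tests that of r would stay below 0.05 and that of rho would not. The value of rho is therefore not read as passing. Without wild-type A and C r was -0.52 over the 5 arrays left, so its strength rests in part on those 2 arrays. Over the 6 correctly gridded wild-type arrays r was -0.87 (exact permutation p = 0.00417, not adjusted). Over the 6 such Roquin san/+ arrays r was -0.13 (exact permutation p = 0.669, not adjusted). In Roquin san/+ r was -0.09 (exact p = 0.7502) and rho -0.25 (exact p = 0.595), and the difference between genotypes was not tested. Gata3 and Ccr4 had r = 0.82 in Roquin san/+ (exact p = 0.0296, adjusted 0.118; rho 0.57, exact p = 0.200), which became -0.19 without arrays F and G. In wild-type r was 0.61 (exact p = 0.132, adjusted 0.356; rho 0.61, exact p = 0.167) and 0.44 without arrays A and C. The remaining pairs, Tbx21 with Il18r1 and Rora with Ccr6, did not pass in either genotype, with adjusted exact p from 0.356 to 0.995 for r. Neither slide holds more than 5 arrays of a genotype, too few to repeat these correlations within a slide.

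Other genes of the same programmes were measured beside the 9. Of the 13 Th1 genes listed, 11 were tested, 9 of them had a positive difference and the median was 0.42. At an unadjusted p below 0.05, 3 were higher in Roquin san/+ and none lower, against 3.47% of all tested probes that were higher at that p; none passed adjustment. The T-box factor Eomes averaged -2.86 ± 0.68 over the Roquin san/+ arrays and -3.93 ± 0.64 over the wild-type arrays (SD, n = 7), a difference of 1.06 (SE 0.34). Il12rb1, which pairs with Il12rb2 in the interleukin 12 receptor, differed by 0.68 (SE 0.21). The third was Runx3, a partner of T-bet, at 0.42 (SE 0.16). Il18rap, which pairs with Il18r1 in the interleukin 18 receptor, differed by 0.62 (SE 0.43) and did not pass an unadjusted p of 0.05. Its means, -5.91 in Roquin san/+ and -6.53 in wild-type, were below the floors of both displaced arrays. NK-cells also make Eomes, and the 5 tested NK-cell markers had a median difference of 0.72. Eomes was high on Roquin san/+ F, at -1.62 against a median of -2.97 on the other 6, and the part of NK-cells in this was not tested. On the same array Il12rb1 was at -2.12 against -1.81, and Runx3 at -2.54 against -2.56. Without that array Eomes, Il12rb1 and Runx3 still passed an unadjusted p of 0.05, against 2.31% of all tested probes that were higher at that p.

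Th2 genes gave less signal. Of the 13 listed, 6 were tested, 5 were positive, none passed an unadjusted p of 0.05 in either direction and the median was 0.09, close to the 0.07 of all probes. The cytokine genes Il5 and Il13 were well above background on 0 and 3 of the 12 correctly gridded arrays. Il4 was tested and differed by -0.08 (SE 0.22). The largest differences were those of Nfil3, a leucine zipper factor, at 0.76 (SE 0.40), of Maf, which activates Il4, at 0.30 (SE 0.39), and of the interleukin 4 receptor Il4ra at 0.09 (SE 0.32).

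Of the 13 Th17 genes, 8 were tested, 7 of them were positive and the median was 0.75. An unadjusted p below 0.05 was reached by 3 (37.5%), all higher in Roquin san/+, against 3.47% of all tested probes that were higher at that p. They were Irf4 at 0.96 (SE 0.30), Batf at 0.75 (SE 0.33) and Ahr at 0.74 (SE 0.27). These 3 are transcription factors of activated lymphocytes as well as of Th17 cells. Il21, a cytokine of Th17 and follicular helper cells, had the largest difference, 1.32 (SE 0.79), and Il22 differed by 0.83 (SE 0.55), neither past an unadjusted p of 0.05. Il22 was well above background on 11 of the 12 correctly gridded arrays, so it passed the filter through a single genotype. Its means, -7.00 in Roquin san/+ and -7.83 in wild-type, were below the floors of both displaced arrays. Of the 3 that passed, Irf4 alone also did so in each alternative run for this list. Batf did not with slide as a block, Batf and Ahr did not without both displaced arrays, and Ahr did not without wild-type C and Roquin san/+ C and F. The share of all tested probes higher at that p was 1.34%, 5.57% and 1.27% in these alternatives, and 2.31% without Roquin san/+ F. On Roquin san/+ F, Irf4 was at -2.37 and Ahr at -3.75, against medians of -3.51 and -4.89 on the other 6 arrays of the genotype. Batf was lower there, at -1.56 against -0.54. Marker lists of other cells also had positive median differences, of 0.91 for myeloid cells (8 of 8 tested markers positive), 0.87 for B-cells (4 of 4) and 0.54 for regulatory T-cells (4 of 4), and their part in the Th17 list was not tested. Il17a and Il17f were well above background on none of the 12 correctly gridded arrays, so no change in them could be measured. Without wild-type C and Roquin san/+ C and F the medians were 0.26 for the Th1, 0.10 for the Th2 and 0.42 for the Th17 list, against -0.00072 for all probes.

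**Figure D5:**
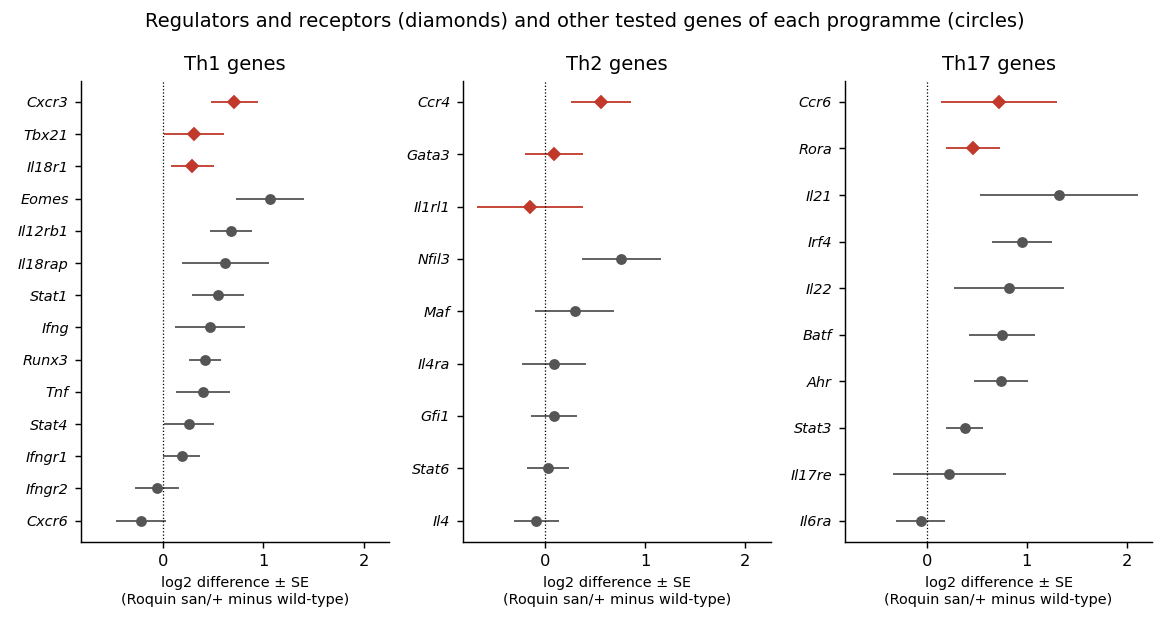
Difference in log2 signal, Roquin san/+ minus wild-type, with its SE from limma, for the tested regulators and receptors (diamonds) and the other tested genes of each list (circles). None passed adjustment; the Th1 and Th17 lists have medians of 0.42 and 0.75 and the Th2 list 0.09.

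The 250 bases before the start of each gene in RefSeq (GRCm38.p6) were searched on both strands for TCACAC, the core of T-box motifs. Among the 9 genes it was found for Cxcr3 and Il12rb2, and over all windows of this kind 12.3% of 32851 hold it. The Cxcr3 window, on the minus strand at chrX:101734148-101734397, is shown because Cxcr3 is the gene with the clearest difference, with the match in capitals.
Cxcr3: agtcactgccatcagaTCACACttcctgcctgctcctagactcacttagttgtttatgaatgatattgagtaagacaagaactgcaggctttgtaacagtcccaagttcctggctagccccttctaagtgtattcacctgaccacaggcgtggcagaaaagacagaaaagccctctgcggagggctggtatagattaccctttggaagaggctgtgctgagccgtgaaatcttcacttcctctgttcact
The GATA letters AGATAA were found before both listed starts of Il1rl1 and 1 of 2 of Ccr6 (9.99% of all windows), and the ROR letters AGGTCA before 1 of 2 starts of each of these genes (14.02% of all windows). A match describes the letters only, and a window without one says nothing about the factor.

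The genes whose deviations from the genotype means followed each factor most closely over the 14 arrays were Notch4, Traf6 and Kif5a for Tbx21 (r 0.92, 0.92 and 0.91), the predicted gene Gm41538, Plcg1 and Cd4 for Gata3 (r 0.96 each), and Ncmap, Gdpd5 and Gm5797 for Rora (r 0.95 each). They were picked as the highest of 28805 probes and are given as a description.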

How the data were processed

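The deposited scanner files give spot intensities, and the authors' extraction software (Agilent Feature Extraction 10.5.1.1) had already subtracted the background in the processed signal used here. A second, log2-scaled version of every array was deposited by the authors, and how it was made is not given in the sources used here. The signals of Roquin san/+ G and wild-type E correlated with the median array at 0.02 as deposited and at 0.99 after moving their grids by 2 rows. Control spots and outlier flags were left out, spots of a probe were averaged as log2, and arrays were scaled to their 75th percentile, taken over 10345 probes that all 14 arrays detected well above background.

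Probes well above background on all 6 correctly gridded arrays of a genotype were tested, 28805 in all (802 passed through Roquin san/+ alone and 3959 through wild-type alone), with limma 3.58.1 in R 4.3.3. Single values were tested by exact permutation over 3432 arrangements in R, and correlations over all pairings in Python 3.11.15. The number of arrays limits the precision. A gene stands for its probe with the highest mean signal. The genes named are the 9 members, the 3 with the largest absolute difference of each list together with others of the lists chosen after their values were seen, and the 3 most alike to each factor. Members and lists were chosen with earlier results of these data known. Some genes of the lists are not reported here and were left out of their counts and sums. The study's text on arrays concerns other samples, so its array methods were not used.

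The limma step was tested on simulated data.

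Alternatives covered background correction, scaling, filter, slide and replicate blocks, the authors' log2 values, variance model, array weights and left-out arrays. Leaving out wild-type C with Roquin san/+ C and F, and correlating over the correctly gridded arrays, were added after seeing the data.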

Additional observations from a re-analysis of the deposited data

Results flagged for a closer look

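In 6 of 18 groups of 7 arrays (9 genes in each genotype), the highest or lowest array stood apart from the next by more of the group's range than Dixon's test allows at the 95% level. Chance flags about 1 in 20 such groups. Gata3 was at -0.75 on Roquin san/+ F, where the rest of the group ran from 0.32 to 0.93, and at -0.87 on wild-type C, where the rest ran from 0.15 to 0.78. Ccr6 was at 1.09 on Roquin san/+ F, against -2.86 to -1.52. Cxcr3 was at 0.95 on Roquin san/+ G, against -0.16 to 0.06. Il12rb2 was at -5.88 on Roquin san/+ G and at -5.67 on wild-type E, which are the floors of the displaced arrays and not measured levels.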

How the results depend on the processing

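No alternative gave a probe with an adjusted p below 0.05, over all probes or among the 9 genes, so no call was lost or gained, and the difference of Tbx21, Rora, Cxcr3, Ccr4 and Il18r1 stayed positive in every alternative run. Scaling on all probes moved the median of all tested probes from 0.07 to -0.10 and the split of unadjusted calls from 999 higher and 101 lower to 582 and 481 (quantile normalization, 398 and 311; the authors' log2 values, 651 and 727; normexp, 1069 and 44, with a median of 0.23). Relative to that median, the Cxcr3 difference was 0.64 under both percentile scalings. These must give the same value, because each subtracts a single number per array. It was 0.46 with normexp, 0.75 with quantile normalization and 0.74 with the authors' log2 values. Gata3 changed sign with scaling on all probes (-0.086), on slide 1 alone (-0.20), with the replicate block and slide block together (-0.29) and with array weights (-0.0096). Ccr6 did so on slide 2 alone (-0.12), Il12rb2 with quantile normalization (-0.46), on slide 2 alone (-0.28) and with the authors' log2 values (-0.24), and Il1rl1 with slide as a block (0.049), on slide 1 alone (0.86) and with replicate block and slide block (0.46). On slide 1 alone the median over the 9 genes was 0.86 in place of 0.30, and that over all tested probes 0.20 in place of 0.07 (1936 higher and 128 lower unadjusted calls). The cause was not tested. With each array left out in turn, Gata3 ran from -0.11 (without wild-type C) to 0.28, Il12rb2 from -0.083 (without Roquin san/+ G) to 0.50, Il1rl1 from -0.47 to 0.13 (above 0 without Roquin san/+ A, wild-type A or wild-type C), Cxcr3 from 0.56 to 0.82, and the number of probes with an unadjusted p below 0.05 from 640 to 2383. Arrays of one letter shared only that letter (correlations of same-letter deviations from the group means -0.33 to 0.43, 1 of 7 best matched by its own letter). With the replicate block, 910 in place of 1100 probes had an unadjusted p below 0.05, Cxcr3 had an exact permutation p of 0.0312 at the same difference of 0.71, and no call changed. Probes below the floors of the displaced arrays, Il12rb2 and most of Il1rl1 among them, hold only a bound there. Every Il12rb2 value in this section includes a displaced array.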
